A study of Mus musculus with 12 samples.

Results

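Hippocampal RNA levels of 10 genes of the antioxidant defence were compared in adult male mice that faced prenatal ethanol, early life stress or both. The genes are Sod1, Sod2, Sod3, Gpx1, Gpx4, Prdx1, Prdx2, Prdx6, Txn1 and Nfe2l2, taken by name from a table of 35580 genes. Their 48 transcripts in the table were found by identifier in GENCODE vM21 and summed per gene, and 42 of the 48 were listed often enough to be tested among 59852 transcripts. All 10 gene sums were tested, among 18434 genes.

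The mice were C57BL/6 (C57BL/6J in the study's methods) males of postnatal day 70, in 4 groups of 3. Control mice had no intervention, and the dams of the ethanol group were offered 10% ethanol in water beside plain water. By the study's methods, ethanol was offered before mating, taken away for mating and then given back until postnatal day 10. Its last days thus coincided with the isolation of pups. Pups of the stress group were isolated daily for 3 h, beginning on postnatal day 2 and ending on day 14, and ethanol + stress mice faced both treatments. Drinking was voluntary and blood alcohol was not taken. Stressed pups were drawn from the same litters as their unstressed counterparts, but litters were not identified in the labels, so that p values measure the spread between these mice only. Libraries of total RNA without rRNA held 12070000 to 14970000 read pairs, as recovered from steps in the low values, and summed to 889222 to 1173650 TPM. TPM is an abundance corrected for transcript length, so levels of different genes can be set side by side. Markers of neurons, astrocytes, oligodendrocytes and microglia were present in every library, and no marker on any of 8 cell type lists was at 0 in any of them.

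Reactive oxygen species are a by-product of respiration and of ethanol metabolism. Superoxide dismutases turn superoxide into hydrogen peroxide, in the cytosol (Sod1, with copper and zinc), in mitochondria (Sod2, with manganese) and outside the cell (Sod3). Glutathione peroxidases and peroxiredoxins then reduce hydrogen peroxide and lipid peroxides, with electrons from glutathione or from thioredoxin (Txn1). Nfe2l2, also called NRF2, is the transcription factor that switches on many of these genes under oxidative stress, by binding the antioxidant response element as a dimer with a small Maf protein.

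RefSeq promoter windows of 300 bases (250 before and 50 after the start, GRCm38.p6) were given for 8 of the 10 genes, in 11 windows. Sod3 and Prdx6 had no entry. The core of the antioxidant response element, TGACNNNGC, was looked for on both strands, and 3 of the 11 windows held it, as did 12.4% of all 32851 windows in the table. The windows are shown because these genes share one regulator in textbook accounts, and capitals mark the match, which is a description of letters and not a site of binding.
Sod1, chr16:90220512-90220811, + strand, match on the opposite strand at base 195 of the window: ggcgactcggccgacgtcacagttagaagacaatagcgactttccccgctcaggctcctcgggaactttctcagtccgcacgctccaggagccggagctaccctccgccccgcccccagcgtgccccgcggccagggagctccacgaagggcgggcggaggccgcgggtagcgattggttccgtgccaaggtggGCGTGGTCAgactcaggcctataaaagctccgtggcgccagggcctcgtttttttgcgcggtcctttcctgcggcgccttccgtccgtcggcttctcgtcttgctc
Prdx1, chr4:116685349-116685648, + strand, match on the opposite strand at base 118: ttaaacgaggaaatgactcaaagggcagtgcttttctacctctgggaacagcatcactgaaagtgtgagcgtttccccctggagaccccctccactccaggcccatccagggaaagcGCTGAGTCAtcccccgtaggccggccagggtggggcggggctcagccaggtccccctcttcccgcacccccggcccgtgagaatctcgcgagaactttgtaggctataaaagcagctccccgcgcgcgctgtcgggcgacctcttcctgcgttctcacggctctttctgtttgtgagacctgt
Nfe2l2, chr2:75704614-75704913, - strand, match on the gene's own strand at base 11: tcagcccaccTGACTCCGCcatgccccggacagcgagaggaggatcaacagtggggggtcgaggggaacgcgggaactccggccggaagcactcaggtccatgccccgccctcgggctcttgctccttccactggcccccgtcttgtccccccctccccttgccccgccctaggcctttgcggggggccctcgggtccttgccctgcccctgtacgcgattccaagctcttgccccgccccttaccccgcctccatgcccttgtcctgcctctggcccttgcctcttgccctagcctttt
The match lay 56 bases before the Sod1 start and 133 bases before that of Prdx1, measured from its first base. That of Nfe2l2 itself began 240 bases upstream.

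Gpx4, which reduces lipid peroxides in membranes, had the highest mean over the 12 libraries at 665 TPM, followed by Sod1 at 619, Prdx2 at 446, Prdx6 at 369 and Prdx1 at 238. Sod2 at 119.7 TPM, Gpx1 at 117 and Txn1 at 108 formed a middle tier. Nfe2l2 was at 13.5 TPM, below every enzyme except Sod3, at 1.19. Most neighbours in this order stood the same way round in 12 of 12 libraries, whatever the treatment. The exceptions were Gpx4 over Sod1 (7 of 12 libraries), Sod2 over Gpx1 (8 of 12) and Gpx1 over Txn1 (8 of 12), whose levels overlapped.

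**Figure D1:**
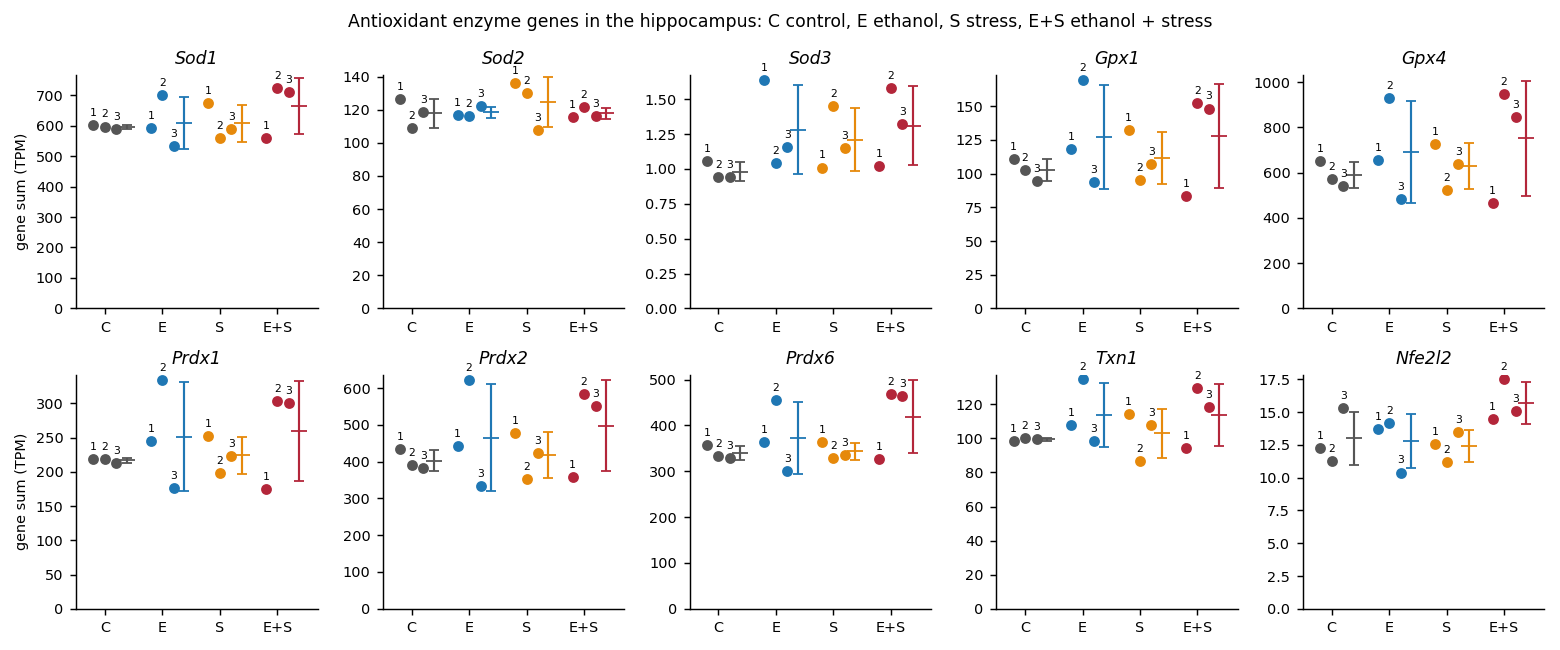
Gene sums in TPM for each mouse (points, numbered by replicate) in the control (C), ethanol (E), stress (S) and ethanol + stress (E+S) groups, with the mean and SD of each group (bar to the right of the points). Ethanol mouse 2 and ethanol + stress mice 2 and 3 sit above the others in 7 of the 10 panels.

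No gene of the set passed the threshold in any of 6 comparisons. The threshold was the one used in the study, an unadjusted p under 0.01, here from limma on log2(TPM + 0.5). The count was 0 of 10 for ethanol, stress and ethanol + stress against control, where 0.678%, 0.51% and 0.971% of all tested genes were called. It was also 0 of 10 for the ethanol main effect (1.12% of all genes), the stress main effect (0.586%) and the interaction of ethanol and stress (0.461%). At an unadjusted p under 0.05 the count was also 0 of 10 in each, where 3.63%, 2.4% and 5.37% of all tested genes were under it for ethanol, stress and ethanol + stress, and 5.79%, 3.28% and 2.69% for the main effects and the interaction, shares at which 0 of 10 is close to the background. None of the genes had 3 treated mice all above or all below the 3 control mice either, against 8.25%, 7.2% and 10.2% of all tested genes for ethanol, stress and ethanol + stress. Fold changes below are on the log2(TPM + 0.5) scale, which understates changes of low genes such as Sod3, and the interval beside each says what size of change these 12 mice leave possible.

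Among the superoxide dismutases, Sod1 (chr16:90220754-90226329, + strand) was at 602, 597 and 588 TPM in control mice 1 to 3. It was at 592, 699 and 533 in ethanol, 675, 558 and 589 in stress and 558, 724 and 709 in ethanol + stress mice. The control mice were within a few percent of each other, and the treated groups reached both above and below them. The log2 difference from control was 0.15 (SE 0.13, 95% interval -0.15 to 0.44) for ethanol + stress, 0.02 (SE 0.13, 95% interval -0.27 to 0.31) for ethanol and 0.02 (SE 0.13, 95% interval -0.27 to 0.32) for stress. The adjusted p of limma for ethanol + stress was 0.796. The sign of the Sod1 difference was not stable, since correcting every library for its relation with transcript length gave -0.03.

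Sod2 (chr17:13006846-13040063, + strand) had the smallest range of the set on the deposited scale. It was at 126, 109 and 118 TPM in control, 117, 116 and 122 in ethanol, 136, 130.2 and 108 in stress and 116, 122 and 116 in ethanol + stress mice. All 4 group ranges overlapped, and the highest library was 1.26 times the lowest. Its log2 difference from control was 0.00 (SE 0.09, 95% interval -0.21 to 0.21) for ethanol + stress, 0.01 (SE 0.09, 95% interval -0.20 to 0.22) for ethanol and 0.08 (SE 0.09, 95% interval -0.13 to 0.28) for stress. These are the narrowest intervals of the 10 genes on the deposited scale. With values rescaled to a common total per library the highest library of Sod2 was 1.44 times the lowest, a wider range than those of Sod1 (1.12), Txn1 (1.21), Prdx6 (1.23), Nfe2l2 (1.38) and Prdx2 (1.41).

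Sod3 (chr5:52363791-52371418, + strand), the extracellular enzyme, was low but detected in every library, with 24.9 to 51.9 read pairs. Its single transcript in the table was at 1.06, 0.941 and 0.945 TPM in control, 1.64, 1.04 and 1.16 in ethanol, 1.01, 1.45 and 1.15 in stress and 1.02, 1.58 and 1.32 in ethanol + stress mice. The control mice were among the lowest, but each treated group held a mouse at or below the control mouse with the highest value. The differences were 0.25 (SE 0.19, 95% interval -0.16 to 0.66) for ethanol, 0.20 (SE 0.19, 95% interval -0.21 to 0.61) for stress and 0.27 (SE 0.19, 95% interval -0.14 to 0.69) for ethanol + stress. With 1 mouse left out they ran from 0.11 to 0.35, 0.1 to 0.28 and 0.17 to 0.39 in the same order.

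Both glutathione peroxidases varied more between treated mice than between control mice. Gpx1 (chr9:108338903-108340343, + strand), the cytosolic selenoprotein that reduces hydrogen peroxide, was at 111, 102 and 94.8 TPM in control and 118, 169 and 94 in ethanol mice. It was at 132, 95 and 107 TPM in stress and 83.3, 152 and 148 in ethanol + stress mice. The lowest and the highest values of the series both came from mice whose dams were offered ethanol, 83.3 TPM in ethanol + stress mouse 1 and 169 in ethanol mouse 2. The log2 difference was 0.27 (SE 0.24, 95% interval -0.27 to 0.80) for ethanol + stress, 0.27 (SE 0.24, 95% interval -0.27 to 0.80) for ethanol and 0.11 (SE 0.24, 95% interval -0.43 to 0.64) for stress.

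Gpx4 (chr10:80047166-80056439, + strand) had, with Gpx1, the widest range on the deposited scale, the highest library being 2.04 times the lowest for Gpx4 and 2.03 times for Gpx1. After rescaling to a common total the range of Gpx4 was 1.66-fold and that of Sod3 was the widest at 1.85-fold. Gpx4 was at 653, 573 and 542 TPM in control and 725, 525 and 640.1 in stress mice. Ethanol mice were at 658, 929 and 483 TPM and ethanol + stress mice at 465, 946 and 846. Mean and SD went from 589 ± 57.4 TPM (n = 3) in control to 752 ± 254 (n = 3) in ethanol + stress mice, and ethanol + stress mouse 1 was below every control mouse. On the log2 scale, the difference was 0.29 (SE 0.27, 95% interval -0.31 to 0.89) for ethanol + stress and 0.18 (SE 0.27, 95% interval -0.42 to 0.78) for ethanol. For stress it was 0.09 (SE 0.27, 95% interval -0.51 to 0.69). Most of the Gpx4 sequence is shared with the pseudogene Gpx4-ps2 or with AC122253.3, which has no value in the deposited data. The values of Gpx4 depend on how read pairs were divided among genes that share its sequence. Of the 30-base words of its main transcript, Gpx4-202, 25.6% occur in no other gene of the annotation, although the pseudogene Gpx4-ps2 was listed at 1.5 TPM or less. Sod1-201 and Prdx2-201 also share words with other genes, 63.7% and 66.8% of theirs being found in no other, as are 39.3% of Prdx1-205, 40.4% of Prdx1-201, 53.1% of Prdx1-202 and 81.3% of Prdx1-204, and the values of these 3 genes are uncertain to that extent. The pseudogenes concerned were at 0.559 TPM or less where listed. Prdx2-201 also shares words with the coding genes Junb, at 32 to 73.3 TPM, and Rnaseh2a, at 25.9 to 39.5 TPM.

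The 3 peroxiredoxins, which pass electrons from a reactive cysteine to peroxides, kept the order Prdx2, Prdx6, Prdx1 in every library. Prdx1 (chr4:116685544-116700822, + strand) was at 218, 219 and 213 TPM in control, 246, 334 and 176 in ethanol, 252, 198 and 223 in stress and 175, 303 and 300.3 in ethanol + stress mice. Control mice spanned a few TPM, and ethanol mouse 3 and ethanol + stress mouse 1 lay well below them while the other treated mice with ethanol lay above. In limma the log2 difference came to 0.21 (SE 0.24, 95% interval -0.30 to 0.73) for ethanol + stress, 0.17 (SE 0.24, 95% interval -0.35 to 0.68) for ethanol and 0.04 (SE 0.24, 95% interval -0.48 to 0.56) for stress.

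Prdx2 (chr8:84969587-84974834, + strand), a cytosolic peroxiredoxin that is also abundant in red blood cells, was at 434, 392 and 383 TPM in control and 442, 621 and 333 in ethanol mice. It was at 477, 352 and 423 in stress and 357, 585 and 552 in ethanol + stress mice. Groups overlapped in all comparisons, with differences of 0.27 (SE 0.23, 95% interval -0.23 to 0.77) for ethanol + stress, 0.16 (SE 0.23, 95% interval -0.33 to 0.66) for ethanol and 0.04 (SE 0.23, 95% interval -0.46 to 0.54) for stress. Summed blood markers (haemoglobin genes and Alas2) were 1603 to 2022 TPM in control mice. They were 3146 to 6815 in ethanol, 2593 to 3392 in stress and 2454 to 6479.7 in ethanol + stress mice. All 5 of the 5 blood markers were called higher against control for ethanol and for ethanol + stress, none of them was at 0, and their part in the Prdx2 values was not tested. Ethanol mouse 2 and ethanol + stress mouse 2 had both the highest blood sums and the highest Prdx2, but ethanol mouse 3, with a blood sum of 3146 TPM, above all control mice, had the lowest Prdx2 of the 12 libraries.

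Prdx6 (chr1:161240112-161251219, - strand), which uses glutathione and acts on phospholipid peroxides, came closest to the threshold among the enzymes. It was at 358, 333 and 328 TPM in control, 363, 455 and 299 in ethanol, 365, 329 and 336 in stress and 326, 468 and 464 in ethanol + stress mice. Mice 2 and 3 of the ethanol + stress group were above all control and stress mice, and mouse 1 was below all control mice. The log2 difference was 0.29 (SE 0.16, 95% interval -0.07 to 0.64) for ethanol + stress, with an unadjusted p of 0.105 and an adjusted p of 0.791 from limma. It was 0.11 (SE 0.16, 95% interval -0.24 to 0.47) for ethanol and 0.02 (SE 0.16, 95% interval -0.34 to 0.37) for stress. With ethanol + stress mouse 1 left out, Prdx6 was the 1 gene of the 10 to be called, with a log2 difference of 0.46 and an unadjusted p of 0.00918 from limma. The same omission gave 0.61 for Gpx4, 0.55 for Gpx1, 0.50 for Prdx2 and 0.47 for Prdx1, with unadjusted p of 0.0243, 0.0226, 0.041 and 0.0414 from limma. Leaving out ethanol + stress mouse 2 instead gave 0.09, 0.12, 0.14 and 0.08, and 0.20 for Prdx6. Txn1 went to 0.31 without ethanol + stress mouse 1 and 0.08 without mouse 2, and Sod1 to 0.27 and 0.08. The size of these differences thus rested on single mice. For ethanol against control, leaving out ethanol mouse 2 gave -0.06 for Gpx4, -0.06 for Prdx1, -0.07 for Prdx2, -0.04 for Prdx6, -0.09 for Sod1, 0.04 for Gpx1 and 0.05 for Txn1. Leaving out ethanol mouse 3 gave 0.41, 0.40, 0.38, 0.26, 0.11, 0.46 and 0.28 in the same order.

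Txn1 (chr4:57943373-57956411, - strand), the cytosolic thioredoxin that keeps Prdx1 and Prdx2 reduced, had the tightest control group. It was at 98.4, 100.4 and 99.7 TPM in control, 108, 135 and 98.4 in ethanol, 114, 86.9 and 108 in stress and 94.1, 129 and 118 in ethanol + stress mice. The differences were 0.18 (SE 0.15, 95% interval -0.14 to 0.50) for ethanol + stress, 0.18 (SE 0.15, 95% interval -0.14 to 0.50) for ethanol and 0.04 (SE 0.15, 95% interval -0.28 to 0.36) for stress.

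The regulator Nfe2l2 (chr2:75675513-75704641, - strand) was at 12.3, 11.3 and 15.3 TPM in control and 13.7, 14.2 and 10.4 in ethanol mice. It was at 12.6, 11.2 and 13.5 in stress and 14.5, 17.5 and 15.1 in ethanol + stress mice. The ethanol + stress mean was the highest of the 4 groups at 15.7 ± 1.6 TPM (n = 3), but control mouse 3 was above 2 of its 3 mice. On the log2 scale, the difference was 0.27 (SE 0.15, 95% interval -0.06 to 0.60) for ethanol + stress, -0.02 (SE 0.15, 95% interval -0.35 to 0.31) for ethanol and -0.05 (SE 0.15, 95% interval -0.38 to 0.28) for stress. The unadjusted p for ethanol + stress, 0.0984 from limma, was the lowest of the 10 genes in the 3 comparisons with control, and the interaction of ethanol and stress was 0.35 (SE 0.21, 95% interval -0.12 to 0.81).

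**Figure D2:**
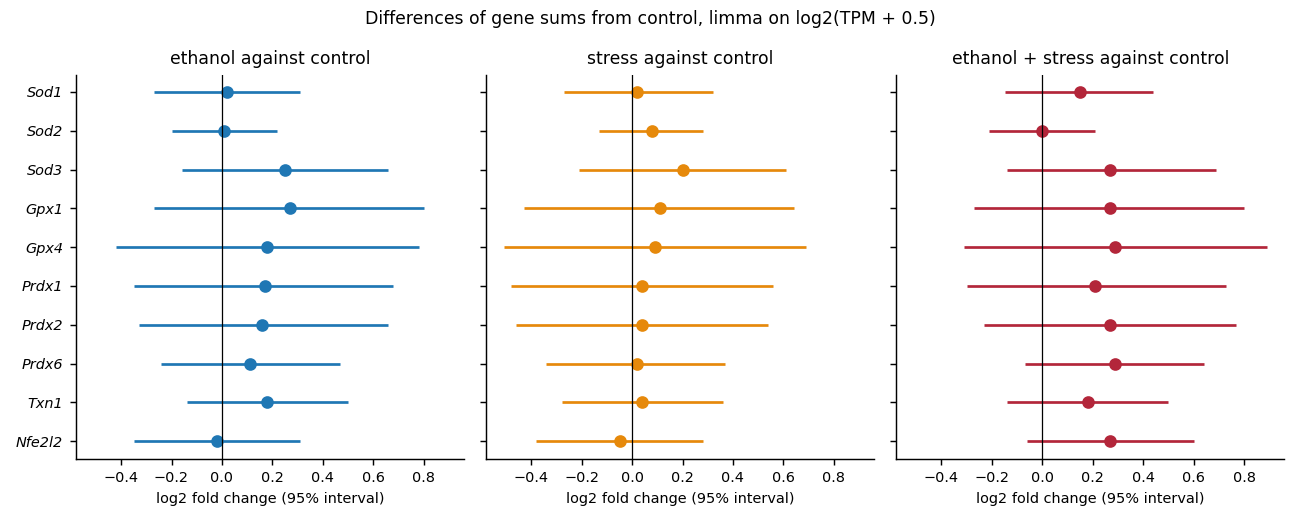
Log2 fold change of the gene sums against control (points) with 95% intervals (lines) from limma on log2(TPM + 0.5), for ethanol, stress and ethanol + stress, 3 mice per group. Every interval crosses 0, and those of Sod2 are the narrowest.

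The differences from control were above 0 for 9 of 10 genes in ethanol, 9 of 10 in stress and 10 of 10 in ethanol + stress mice, Sod2 by less than 0.01. Their medians were 0.16, 0.04 and 0.27 on the log2 scale, beside 0.02, 0.00 and 0.02 over all tested genes. These 3 comparisons share the same control mice. Main effects of ethanol ran from -0.03 to 0.21 over the 10 genes, those of stress from 0.02 to 0.12, and the interaction from -0.17 to 0.35. With every library brought to one total, 7 of 10 differences for ethanol, 8 of 10 for stress and 9 of 10 for ethanol + stress were above 0, and the medians were 0.08, 0.02 and 0.14. With values rescaled to a common total per library, the ethanol + stress difference of Sod2 was -0.13 and that of Sod1 0.01, while the median over all genes was -0.09.

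**Figure D3:**
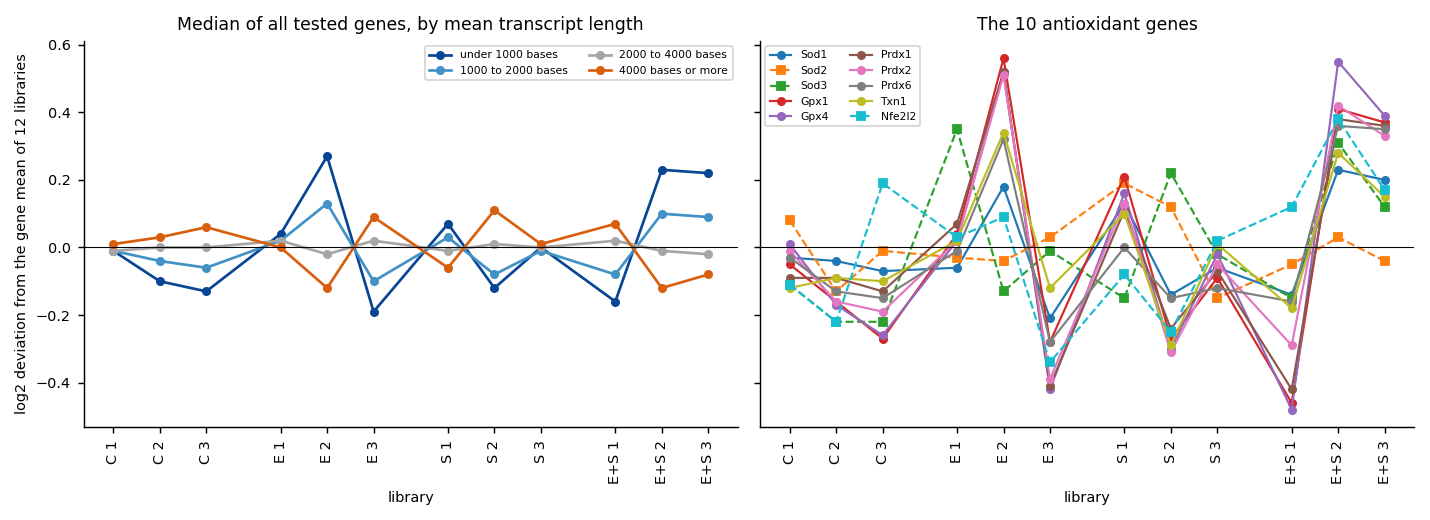
Deviation of each library from the 12-library mean on the log2 scale, as the median of all tested genes in 4 classes of transcript length (left) and for each of the 10 genes (right, dashed for Sod2, Sod3 and Nfe2l2). Short genes and 7 of the 10 genes were high in ethanol mouse 2 (E 2) and ethanol + stress mice 2 and 3 (E+S 2, E+S 3) and below the mean in ethanol mouse 3, stress mouse 2 and ethanol + stress mouse 1.

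The spread within the ethanol groups followed single libraries. Sod1, Gpx1, Gpx4, Prdx1, Prdx2, Prdx6 and Txn1 all had ethanol mouse 2 and ethanol + stress mice 2 and 3 as their 3 highest libraries, as did 10.3% of all tested genes. These were also the 3 libraries with the highest sums, 1173649.8, 1126489.7 and 1130571 TPM. The 7 genes have short transcripts, with a mean length weighted by TPM under 1400 bases, as 25.6% of tested genes have, whereas Sod2, Sod3 and Nfe2l2 are longer and did not have these as their 3 highest. Nfe2l2 was nevertheless highest in ethanol + stress mouse 2 and had ethanol + stress mouse 3 next after control mouse 3. Among all tested genes, 18.9% of those under 1000 bases had the same 3 highest libraries, 15.1% of those of 1000 to 2000 bases, 6.91% of those of 2000 to 4000 and 3.13% of those of 4000 or more.

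In ethanol mouse 2, tested genes under 1000 bases deviated by a median of 0.27 on the log2 scale and those of 4000 bases or more by -0.12. The deviations of Gpx1, Prdx1 and Prdx2 there were 0.56, 0.52 and 0.51. Ethanol mouse 3 showed the opposite, with -0.19 for genes under 1000 bases and -0.42 for Gpx4. In ethanol + stress mouse 1 the values were -0.16 and -0.48. In stress mouse 2 they were -0.12 and -0.30. The part of transcript length in the values of the 7 genes was not tested. With the length trend removed, the ethanol + stress differences were 0.16 for Gpx4, 0.13 for Gpx1, 0.12 for Prdx1, 0.17 for Prdx2, 0.19 for Prdx6, 0.06 for Txn1 and -0.03 for Sod1. Rescaling to a common total, which does not use length, gave 0.16, 0.13, 0.08, 0.14, 0.15, 0.05 and 0.01 in the same order.

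With these 3 libraries left out, an alternative chosen after seeing the data, the ethanol + stress difference was -0.34 for Gpx4, -0.30 for Gpx1, -0.31 for Prdx1, -0.17 for Prdx2 and -0.06 for Prdx6. The 3 libraries are the highest for each of these genes, and the ethanol + stress mouse that is left had low values of them, so that the choice of libraries fixes this direction. It leaves 1 ethanol + stress mouse, assumed to vary like the other groups, and 0 of 10 genes were called. Markers of some cell types stood apart in the same libraries. Oligodendrocyte markers summed to 5908 and 5868 TPM in ethanol + stress mice 2 and 3 and 5085 in ethanol mouse 2, but stress mouse 1 was at 5334. The sums were 4150.1 to 4524 in control mice and 2638 in ethanol mouse 3. Astrocyte markers were highest in the same 3 libraries, at 1545, 1630.3 and 1798 TPM, with 1491 in ethanol mouse 1 next, and so were microglia markers, at 339.8, 339 and 386 TPM, with 313 in stress mouse 3 next. Neuronal markers were lowest in these libraries, at 2359.5 to 2662 TPM, against 2864 to 2902 in control mice. Choroid plexus markers did not follow these libraries, since they were at 207 TPM in ethanol mouse 2, 355 in ethanol + stress mouse 3 and 7935 in ethanol + stress mouse 2. Over all libraries they ranged from 154 to 7935 TPM, with 856 to 2329 in control mice. Outside the blood list, 1 marker, on the list for meninges, was called higher for ethanol + stress, and 0 were called higher for ethanol. None of these markers was at 0 in any library, their part was not tested, and fewer cells of a type and less RNA per cell cannot be told apart in tissue RNA.

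By isoform, the 10 genes fell into those with one dominant transcript and those with several. A single transcript held 99.8% of the Sod1 sum (Sod1-201), 97.9% of Gpx4 (Gpx4-202) and 97.7% of Nfe2l2 (Nfe2l2-201), and Sod3 and Txn1 have 1 transcript each in the table. Sod2, Gpx1, Prdx1, Prdx2 and Prdx6 were spread over 2 to 4 transcripts of 10% or more. All shares are estimates, since kallisto divides read pairs among transcripts that overlap. Prdx2-201, for example, has 0 words of 30 bases found in no other transcript, and Prdx6-208 has 28 of 1265.

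**Figure D4:**
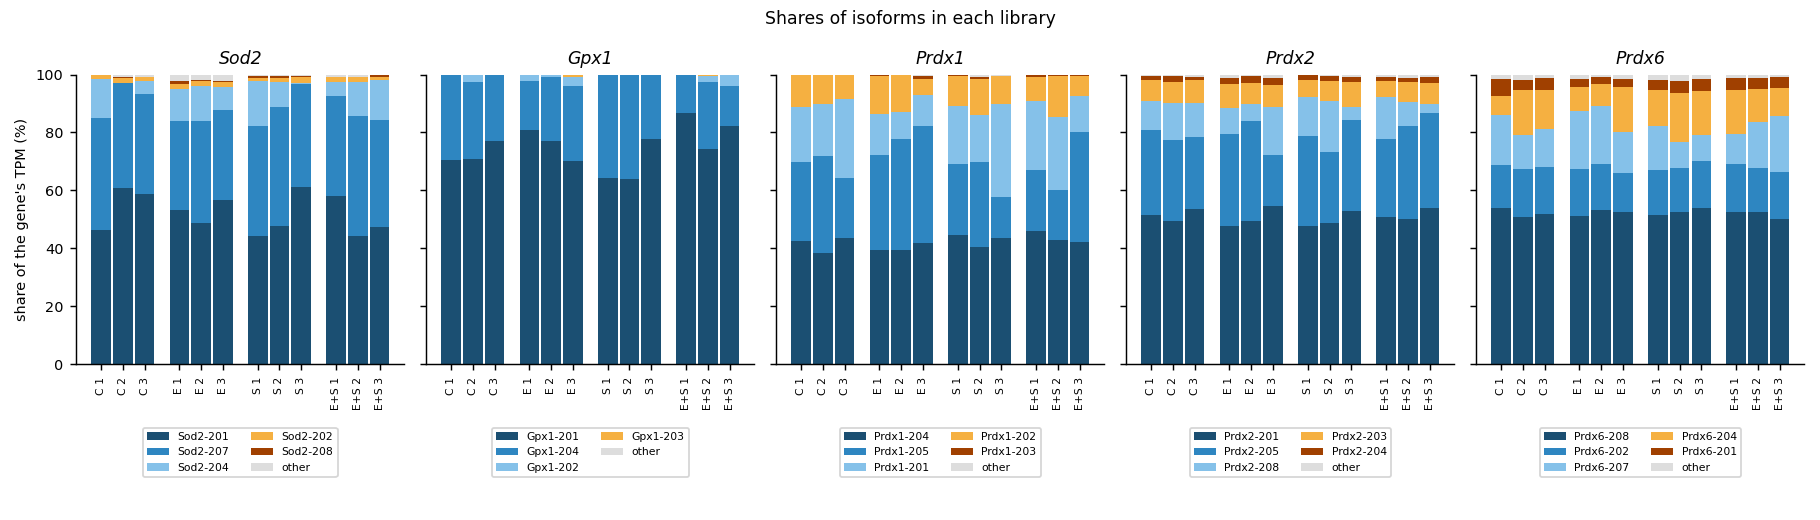
Share of each gene's TPM held by its 5 most abundant transcripts (4 for Gpx1) in each of the 12 libraries, with the rest in grey. The leading transcript of Prdx6 keeps a share close to that of its mean, 52.2%, while the shares of Sod2 and Prdx1 differ between mice of one group.

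In Sod2, the coding Sod2-201 of 5861 bases held 52% of the sum and Sod2-207 of 1138 bases, annotated without a coding sequence, 36.3%. Sod2-201 was at 58.7, 66.2 and 69.5 TPM in control, 62.5, 56.5 and 69.1 in ethanol, 60.3, 62.3 and 66 in stress and 67.3, 54.1 and 54.8 in ethanol + stress mice. Sod2-207 was at 48.6, 39.6 and 41.1 TPM in control, 36, 41 and 38 in ethanol, 51.8, 53.3 and 38.5 in stress and 39.9, 50.4 and 43 in ethanol + stress mice. The lowest 3 values of Sod2-201 were those of ethanol mouse 2 and ethanol + stress mice 2 and 3, the libraries in which the short genes were high. Neither transcript was called in any comparison, and the log2 difference for ethanol + stress was -0.15 (SE 0.11, 95% interval -0.39 to 0.10) for Sod2-201 and 0.04 (SE 0.14, 95% interval -0.27 to 0.36) for Sod2-207.

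Prdx6 was led by Prdx6-208, annotated as a target of nonsense-mediated decay, with 52.2% of the gene's TPM and at most 53.9% in a single library. The coding Prdx6-202 held 15.8%, and Prdx6-207, annotated without a coding sequence, 14.9%. Prdx6-204, also without one, was at 24.4 to 55.3 TPM. The ethanol + stress difference was 0.27 (SE 0.17, 95% interval -0.09 to 0.64) for Prdx6-208 and 0.30 (SE 0.18, 95% interval -0.10 to 0.70) for Prdx6-202. In Prdx2 the coding Prdx2-201 held 50.8% and the retained-intron transcript Prdx2-205 29.5%, with a lowest share of 17.8% in ethanol mouse 3. Neither was called.

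Prdx1 divided into 4 coding transcripts. Prdx1-204 held 41.9%, Prdx1-205 28.4%, Prdx1-201 18.6% and Prdx1-202 10.4%. Prdx1-201 was at 41.5, 39.4 and 58.3 TPM in control and 34.4, 31.3 and 18.4 in ethanol mice, with every ethanol mouse below every control mouse. Ethanol and control mice did not overlap in 10.2% of all tested transcripts. Among the 42 tested transcripts of the 10 genes, 5 lay above and 2 below all control mice for ethanol. The numbers were 2 and 0 for stress (8.22% of all transcripts) and 3 and 1 for ethanol + stress (10.2%). The log2 difference of -0.74 (SE 0.35, 95% interval -1.52 to 0.03) did not pass, with an unadjusted p of 0.0577 from limma. In ethanol + stress mice Prdx1-201 was at 41.4, 76.6 and 37.3 TPM and the difference was 0.10 (SE 0.35, 95% interval -0.67 to 0.88). Prdx1-205 in control and ethanol mice was at 59.4, 73.8 and 44.1 and 81.1, 128 and 71 TPM, a difference of 0.64 (SE 0.41, 95% interval -0.25 to 1.53), beside 0.06 in ethanol + stress mice. In Gpx1 the coding Gpx1-201 held 74.7% and Gpx1-204 23.7%. Gpx1-201 differed by 0.36 (SE 0.18, 95% interval -0.03 to 0.75) in the ethanol main effect, with an unadjusted p of 0.0663 from limma.

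Of the 42 tested transcripts, 3 were called at an unadjusted p under 0.01, all of them minor isoforms. The count was 1 of 42 for ethanol against control (1.26% of all transcripts were called), 1 of 42 for stress (0.914%) and 3 of 42 for ethanol + stress (1.21%). For the ethanol main effect it was 2 of 42 (1.47%), for the stress main effect 0 of 42 (0.934%) and for the interaction 0 of 42 (0.854%). An unadjusted p under 0.05 by limma was reached by 3, 1 and 5 of 42 for ethanol, stress and ethanol + stress (5.43%, 3.88% and 5.57% of all transcripts). It was reached by 5 for the ethanol main effect, 4 for the stress main effect and 3 for the interaction (6.52%, 4.14% and 4.06%). The lowest adjusted p of limma among them was 0.526, far from 0.05. The first 30-base word of each that occurs in no other transcript of GENCODE vM21 is shown for each of the 3, as sequence that sets it apart.
Prdx1-203, bases 1 to 30 of 661: gttcagtttcctcctctcccgctcaccgat
Prdx2-207, bases 554 to 583 of 993: ctttcagtatacagacgagcatggggaagg
Prdx6-206, bases 338 to 367 of 874: atgggaaaggaggtccttgccgaggacgga

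Prdx1-203 (ENSMUST00000129315.7, coding, 4 exons, chr4:116685861-116692992, + strand) was listed at 0 TPM in all 3 control mice and above 0 in all 9 treated mice. It thus entered the test through treated libraries alone. No overlap with control was seen in 10.2%, 8.22% and 10.2% of all tested transcripts for ethanol, stress and ethanol + stress. Prdx1-203 was at 0.545, 1.39 and 1.73 TPM in ethanol, 1.18, 1.51 and 0.559 in stress and 1.74, 1.21 and 0.65 in ethanol + stress mice. These values are worth 2.25 to 7.46 read pairs each, and 1 mouse of each treated group was at or under the level of 3 read pairs. The mean was 1.49 times that level in the control libraries for ethanol, 1.32 times for stress and 1.46 times for ethanol + stress mice. These ratios take the treated means as exact and are not lower bounds of a difference. The transcript was called in all 3 comparisons with control, with unadjusted p of 0.00099, 0.00154 and 0.000995 and adjusted p of 0.527, 0.885 and 0.526 by limma. The comparisons share the control mice that were at 0. Prdx1-203 made up 0.368% of the gene's TPM, and 57 of its 632 words occur in no other transcript. It was also called for the ethanol main effect, 0.91 (SE 0.27, 95% interval 0.31 to 1.51) with an adjusted p of 0.654 by limma, a fitted value that depends on the pseudocount. The interaction was -1.61 (SE 0.54, 95% interval -2.81 to -0.42) with an unadjusted p of 0.0129 from limma, not called, so that this main effect averages a difference of 1.71 between ethanol and control mice with a far smaller one between the stressed groups. That call was lost without any 1 of 9 of the 12 mice, ethanol mouse 1, stress mouse 2 and ethanol + stress mouse 3 being the exceptions, with differences of 0.78 to 0.94, and without the 3 libraries of highest sum, with a difference of 1.08, whereas the calls against control were kept without them.

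Prdx2-207 (ENSMUST00000143402.2, retained intron, chr8:84969694-84972103, + strand) was called higher for ethanol + stress and for the ethanol main effect. It was at 0.479, 0.509 and 0.505 TPM in control and 0, 1.08 and 0.886 in stress mice, and at 2.72, 2.14 and 0.884 in ethanol and 1.68, 3.1 and 3.04 in ethanol + stress mice. Every mouse of the ethanol and ethanol + stress groups was above every control mouse, while ethanol mouse 3 was below stress mouse 2. Such separation from control was seen in 10.2% of tested transcripts for ethanol and 10.2% for ethanol + stress. Control values are worth about 3 read pairs and the highest value 21.8. The log2 difference was 1.60 (SE 0.48, 95% interval 0.54 to 2.66) for ethanol + stress and 1.37 (SE 0.34, 95% interval 0.62 to 2.12) for the ethanol main effect, with adjusted p of 0.81 and 0.544 by limma. For ethanol against control it was 1.19 (SE 0.48, 95% interval 0.13 to 2.25), with an unadjusted p of 0.0308. The ethanol + stress call was lost without any 1 of the 3 control mice or without ethanol + stress mouse 2 or 3, with differences of 1.48 to 1.61, and without the 3 libraries of highest sum the differences were 1.13 for ethanol + stress and 1.08 for the ethanol main effect and neither was called. Of its 964 words, 405 occur in no other transcript.

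Prdx6-206 (ENSMUST00000156318.7, annotated without a coding sequence, chr1:161241635-161251121, - strand) was listed at 0 TPM in the 3 ethanol + stress mice and called lower there. It was at 1.22, 0.524 and 0.826 TPM in control, 0.883, 1.34 and 0 in ethanol and 0.441, 0.572 and 0.894 in stress mice. Another 0 stood in the ethanol group, and the largest value is worth 6.87 read pairs. The fitted log2 difference, which depends on the pseudocount, was -1.41 (SE 0.43, 95% interval -2.35 to -0.47) with an adjusted p of 0.814 by limma. The control mean was 1.65 times the level of 3 read pairs in the ethanol + stress libraries. This ratio takes the control mean as exact, with 1 of 3 control mice at or under that level, and is not a lower bound. Ethanol + stress and control mice did not overlap here, as in 10.2% of all tested transcripts. The call was lost without control mouse 1 or 3, without stress mouse 2, without any 1 of the ethanol + stress mice and without the 3 libraries of highest sum. The difference stayed at -1.41 in each of these except without control mouse 1, where it was -1.22. Of its 845 words, 27 occur in no other transcript.

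**Figure D5:**
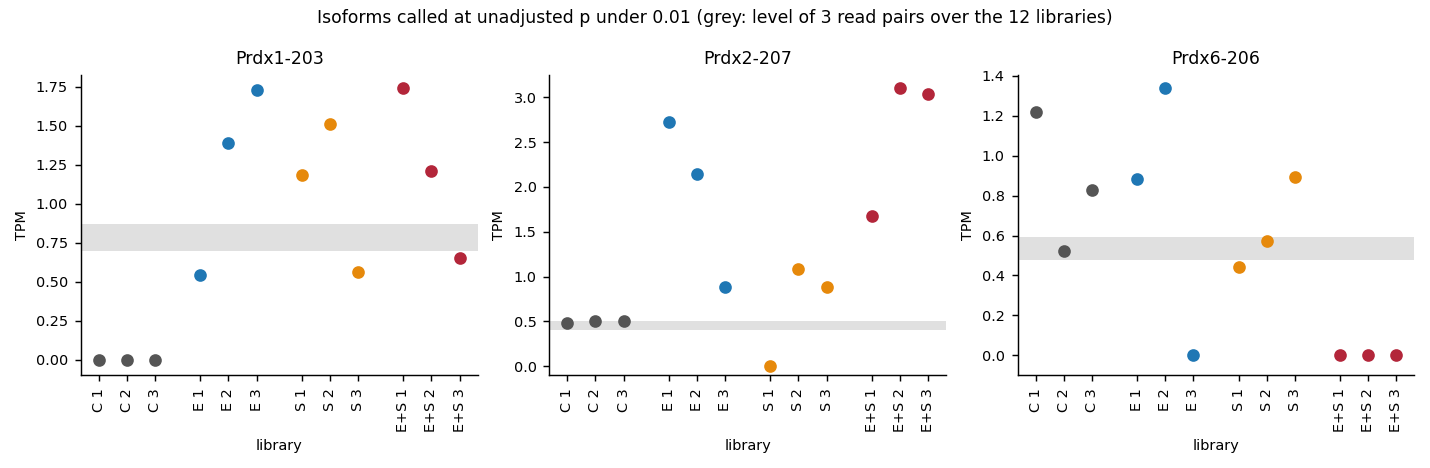
TPM of the 3 called isoforms in each library (C control, E ethanol, S stress, E+S ethanol + stress, points coloured by group), with the range over libraries of the level of 3 read pairs in grey. Prdx1-203 is at 0 in the 3 control mice, Prdx6-206 is at 0 in the 3 ethanol + stress mice, and many points lie near the grey band.

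The wider pathway was followed with 70 further genes in 6 lists, of which 1 was called. The lists cover other peroxide enzymes (7 genes), the thioredoxin and glutaredoxin system (14), glutathione synthesis, recycling and transfer (12), copper and selenium supply (12), partners and targets of Nfe2l2 (17), and enzymes that make superoxide or peroxide (8). All 70 were tested, and for ethanol + stress 1 was called higher and 0 lower (0.971% of all genes were called). An unadjusted p under 0.05 was reached there by 4 of 70, Txnip, Gss, Mgst1 and Cybb, and by 5.37% of all genes. Their names were chosen after the values were seen, with differences of 0.37 for Txnip, 0.29 for Gss and 0.55 for Mgst1, which were not called. For ethanol and for stress against control 0 of 70 were called by limma (0.678% and 0.51% of all genes), and 0 of 70 had an unadjusted p under 0.05 (3.63% and 2.4%). For each main effect and the interaction 0 of 70 were called (1.12%, 0.586% and 0.461% of all genes) and 1 had an unadjusted p under 0.05 (5.79%, 3.28% and 2.69%). The median ethanol + stress difference was 0.26 on the log2 scale over the other peroxide enzymes, 0.20 over the glutathione list and 0.18 over the superoxide sources, beside 0.02 over all genes. It was 0.11 over the thioredoxin list, 0.08 over copper and selenium supply and 0.04 over the partners and targets of Nfe2l2.

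The called gene was Cybb, the catalytic subunit of the phagocyte NADPH oxidase, which makes superoxide. It was at 0.424, 0.968 and 0.245 TPM in control, 0.579, 0.46 and 0.848 in ethanol, 0.461, 0.888 and 0.259 in stress and 1.33, 1.15 and 1.49 in ethanol + stress mice. The 3 ethanol + stress mice were above the other 9. Ethanol + stress and control mice did not overlap in 10.2% of all tested genes, and the share of genes above all 9 others was not counted. On the log2 scale, the difference was 0.86 (SE 0.28, 95% interval 0.25 to 1.46), with an unadjusted p of 0.00999, at the edge of the threshold, and an adjusted p of 0.791 by limma. The call was lost under most alternatives, with differences that stayed between 0.64 and 1.29, and 0.77 with rescaling to a common total. Microglia markers, from cells that express Cybb, summed to 280.3 to 386 TPM in ethanol + stress mice and 282 to 309 in control mice, with 0 of 5 called and none at 0, and their part was not tested.

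The most abundant gene of each list was not called in any comparison, and all 6 were highest in ethanol mouse 2 and ethanol + stress mice 2 and 3. Prdx5, a peroxiredoxin of mitochondria and peroxisomes, was at 309, 301 and 270.3 TPM in control, 313, 419.6 and 257 in ethanol, 345, 278 and 289.6 in stress and 277, 413 and 379 in ethanol + stress mice. Fth1, the ferritin heavy chain that stores iron, led the Nfe2l2 list at 2876, 2520.1 and 2236 TPM in control, 2621, 3345 and 1973 in ethanol, 2993, 2626 and 2336 in stress and 2224, 3562 and 3248 in ethanol + stress mice. In both, ethanol mouse 3 was the lowest library. Gstm5, a glutathione transferase, had means of 421 ± 10.4 TPM in control and 497 ± 82.1 in ethanol + stress mice (SD, n = 3). Selenop, the selenium carrier, had 247 ± 22.5 and 321 ± 82.3, Glrx3, a glutaredoxin with iron-sulphur clusters, 116 ± 2.62 and 139.9 ± 27.5, and Maob, a monoamine oxidase, 19.1 ± 1.41 and 22.8 ± 2.8 TPM (SD, n = 3).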

How the data were processed

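RNA-Seq of the hippocampus of 12 mice was used, 3 per group. The deposited values are a signal per transcript: the authors assigned paired-end reads with kallisto and processed them with sleuth (mm10 per the labels, versions not given in the sources used here), and the exact scaling is not given there either. The values are not counts, and since their sums differ between libraries they were taken as TPM scaled between libraries. Identifiers of 113580 of the 115270 transcripts were found in GENCODE vM21, and 0.518% to 0.58% of a library's values had no match and were left out of the sums per gene.

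Features with 0.1 TPM or more in 6 or more libraries entered the test, which was made on log2(TPM + 0.5) by limma 3.58.1 (R 4.3.3, lmFit, eBayes with trend) in one model of the 4 groups. Calls are an unadjusted two-sided p under 0.01, and p values were adjusted over all genes or all transcripts tested by the Benjamini-Hochberg method. Read pairs were recovered from steps in the low values of genes with 1 transcript, of which 83.9% to 89.2% were whole within 0.2, with a fragment length of 200 bases, and the level of 3 read pairs per library is the floor, which covers counting error only. Joins used Python 3.11.15 and pandas 2.3.3.

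The genes, lists and tests were chosen with earlier results of these data known. Named transcripts are the most abundant of each gene, those with 10% or more of its TPM and those called, and named list genes are those called and the most abundant of each list, with Txnip, Gss and Mgst1 added after their values were seen. Alternatives were a pseudocount of 0.1 or 1, other filters and scalings, removal of the length trend, eBayes without trend, a replicate block, only the 2 groups compared, and leaving out each mouse. The labels give no sequencing batch, and the DNA methylation libraries were not analysed here.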

Additional observations from a re-analysis of the deposited data

How the results depend on the processing

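Among gene differences at least as large as their standard error with all mice and the deposited scale, the listed alternatives brought 1 below 0, Sod1 in ethanol + stress mice, which was -0.03 with the length trend removed, with a p of 0.659 from limma. With the 3 libraries of highest sum left out, chosen after seeing the data, the ethanol + stress difference was -0.09 for Sod1, -0.30 for Gpx1, -0.34 for Gpx4, -0.17 for Prdx2, -0.06 for Prdx6 and -0.08 for Txn1, and the ethanol main effect -0.18 for Gpx1, -0.21 for Prdx1, -0.14 for Prdx2, -0.06 for Prdx6 and -0.04 for Txn1, where all were above 0 with all mice. These libraries are the highest for the 7 short genes, so that the choice fixes this direction. Their unadjusted p from limma were 0.106 to 0.704. The count of called gene sums was 0 under every alternative other than leaving out ethanol + stress mouse 1, so that it was 0 to 1 for ethanol + stress with 1 mouse left out.

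Counts of called transcripts among 42 moved more. For ethanol against control the count was 2 with rescaling to a common total and 2 with the length trend removed, each adding Prdx6-201, and 1 to 2 with 1 mouse left out. For ethanol + stress it was 1 to 3, and for stress against control 1 throughout. For the ethanol main effect it was 3 with eBayes without trend, adding Prdx2-206, and 1 to 3 with 1 mouse left out. It was 1 with a pseudocount of 1, a minimum of 1 TPM, rescaling, the length trend removed and the replicate block, each losing Prdx1-203. The Prdx1-203 difference was then 0.59, 0.91, 0.87, 0.78 and 0.91 in that order, beside 0.91 with the main settings. For the stress main effect it was 1 with a pseudocount of 0.1 and 1 with eBayes without trend, and 0 to 2 with 1 mouse left out. For the interaction it was 1 with a pseudocount of 0.1, 1 with the length trend removed and 1 with eBayes without trend, and 0 to 2 with 1 mouse left out. The calls of Prdx1-203 against control were kept under every alternative, which is no sign of stability, since the control mice are at 0 whatever the setting. A pseudocount of 0.1 gave Prdx2-207 a difference of 2.13 with a p of 0.0292 in ethanol + stress, and Prdx6-206 stayed at -1.41 with a p of 0.0127 with the replicate block and 0.0109 with no filter, all from limma.

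The labels do not say whether the replicate numbers pair the mice. Deviations of same-numbered mice correlated between -0.173 and 0.164 over genes, which cannot exclude shared litters or batches. The replicate block changed no call of a gene sum of the 10. Among all genes called for ethanol + stress, 71.5% were higher, but 45.8% with rescaling and 51.1% with the length trend removed, and for the ethanol main effect 152 of 207, 64 of 128 and 115 of 211 were higher. Depth limits the 3 called isoforms, which rest on 0 to 21.8 read pairs per library.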
